A study of Mus musculus with 2 samples.

Results

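The TGF-beta and activin ligands, their receptors and inhibitors were followed in single cells of the mouse rib repair callus at 4 days post injury (dpi). The 10 genes were chosen by name, with earlier results of these data known, out of 31054 features: the ligands Tgfb1, Tgfb2 and Tgfb3, the activin subunits Inhba and Inhbb, the receptors Tgfbr1 and Tgfbr2, the inhibitors Fst and Fstl3, and the matrix gene Tgfbi. All 10 were present once in the feature list. The Control library came from Sox9:CreER;R26:tdT;Smof/+ animals and the SmoKO library from Sox9:CreER;R26:tdT;Smof/f animals, so the controls also carried the tamoxifen-inducible Cre, the reporter and 1 floxed Smo allele. Per the study's methods, adult animals of 8 to 12 weeks received 3 tamoxifen injections from day -7 to day -5, and 3 mm of rib was resected on the day of injury. Calluses of 3 animals were pooled per genotype into 1 10x library, so no test between genotypes was possible. Every interval below is a 95% interval that covers counting error only, and animal, pool and genotype cannot be told apart. Sox9:CreER recombines only in cells that express Sox9 around the time of tamoxifen, so cells that did not express Sox9 in that window were not targeted directly.

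TGF-beta ligands are secreted in a latent form, held in the matrix until they are activated, and then bind the receptor pair encoded by Tgfbr2 and Tgfbr1, which signals through Smad2 and Smad3. Activins are dimers of the subunits encoded by Inhba and Inhbb, signal through the same Smads by way of activin receptors, and are bound and neutralized by follistatin (Fst) and follistatin-like 3 (Fstl3). In bone repair this family is known for its effects on the recruitment of progenitors, chondrogenesis and matrix production, and on osteoclasts.

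Inhba and Tgfb2 were the members with the largest share of their UMIs in connective cells, and the bases before their start sites are shown for that reason. Of the 10 members, 8 have an entry in the RefSeq promoter table (GRCm38.p6). In the 250 bases before each start site the letters TATAAA were searched on both strands, and matches are in capitals. These letters were found in 12.4% of 32851 such windows over all genes. They were in 3 of the 9 member windows, beginning 91 bases before the start site of Inhba and 31 bases before that of Tgfb2, and 29 bases before that of Fstl3 on the reverse strand. The GLI core letters CCACCCA, present in 8.11% of windows, were found in 1 of the 9 member windows, that of Tgfb1. The AP-1 letters TGANTCA (6.75% of windows) and the Smad palindrome GTCTAGAC (0.167%) were in none of the 9. A match is a description of the letters only.
Inhba, chr13:16011601-16011850, plus strand: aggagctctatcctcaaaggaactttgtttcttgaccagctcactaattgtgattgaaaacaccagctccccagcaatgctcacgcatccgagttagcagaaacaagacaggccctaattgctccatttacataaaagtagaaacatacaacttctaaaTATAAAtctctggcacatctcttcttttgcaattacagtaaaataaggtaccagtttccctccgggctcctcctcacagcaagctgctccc
Tgfb2, chr1:186705990-186706239, minus strand: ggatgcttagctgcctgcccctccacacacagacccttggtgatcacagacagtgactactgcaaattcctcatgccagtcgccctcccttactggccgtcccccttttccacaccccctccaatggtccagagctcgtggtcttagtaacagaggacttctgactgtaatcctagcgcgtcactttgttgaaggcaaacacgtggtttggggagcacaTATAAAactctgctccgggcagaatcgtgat

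The deposited matrices held 10747 barcodes and 105367110 UMIs for Control and 10512 barcodes and 112700220 UMIs for SmoKO. With at least 200 detected genes and under 10% of UMIs on the 13 mitochondrial genes, 10057 Control and 9507 SmoKO cells were kept, at a median of 8367 and 9092 UMIs per cell. Cells were assigned by marker lists that hold none of the members. The connective gate took 6531 Control and 5458 SmoKO cells, led by Cthrc1, Tnfaip6, Angptl1, Inhba and Aspn, and 11.1% and 10.7% of kept cells stayed unassigned. The 8 connective markers summed to 4953 and 4679 CPM (the gene's UMIs per 1000000 UMIs of the cells named) in the connective cells of Control and SmoKO, and the 9 macrophage or monocyte markers to 60.8 and 71.6 CPM. The 2 libraries shared 599 barcodes among kept cells, 5.96% of Control and 6.30% of SmoKO cells, and 332 of these fell in the same class in both. The ratio between libraries of each of the 10 members in all connective cells kept its direction without the shared barcodes. Smo itself was counted at 19.1 CPM in Control and 12.1 CPM in SmoKO connective cells. Which part of Smo is deleted, and which end of the transcript was counted, is not given in the sources used here, so this level does not check the deletion.

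Connective cells were the main source of the TGF-beta and activin transcripts. Of the Inhba UMIs, 96.6% in Control and 95.2% in SmoKO came from connective cells, and for Tgfb2 these shares were 95.3% and 92.7%. For Tgfb3, Fst and Fstl3 they ranged from 87.0% to 94.6%. Tgfbr1 was the member with the lowest connective share, 62.6% and 59.7%, and osteoclasts gave 16.2% and 15.0% of its UMIs. Macrophages and monocytes gave 8.31% and 14.4% of the UMIs of Tgfbi, and endothelial cells gave 11.5% and 8.11% of those of Inhbb from 74 and 75 cells. These shares also move with the number of cells of each class, and fewer cells of a type and less RNA per cell cannot be told apart in such sums.

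**Figure D1:**
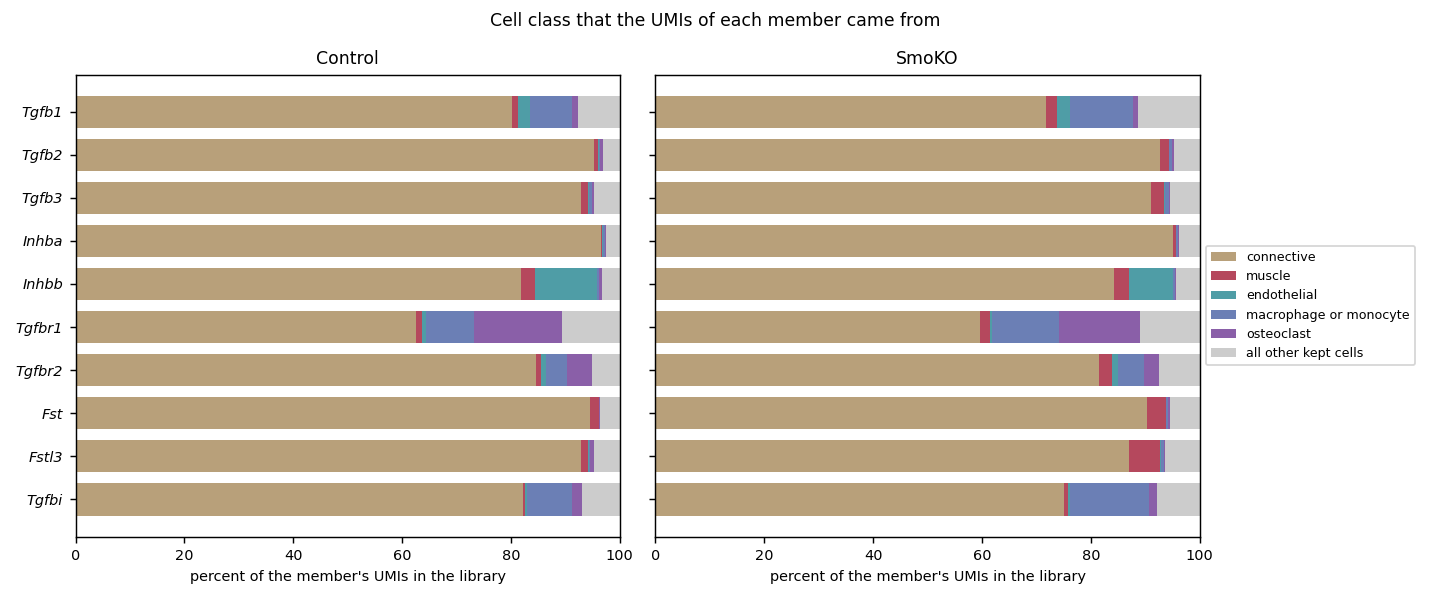
Share of each member's UMIs (horizontal axis, percent) that came from each cell class, in the Control (left) and SmoKO (right) library. Connective cells gave the largest part for every member, from 59.7% for Tgfbr1 in SmoKO to 96.6% for Inhba in Control.

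The level of a member in a class is given as CPM, for the 7 classes with at least 50 cells in each library. RNA carried between droplets can set a background, and the collagen genes Col1a1, Col1a2 and Col3a1 were used as its measure. Their summed level in macrophages and monocytes was 5.84% (Control) and 5.74% (SmoKO) of that in connective cells, in osteoclasts 8.95% and 9.19%, in muscle cells 10.7% and 10.1%, and in endothelial cells 12.2% and 7.88%. A member at or below such a share of its connective level was read as background. How much of the collagen level was carried RNA, mixed droplets or the cells' own collagen was not tested.

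**Figure D2:**
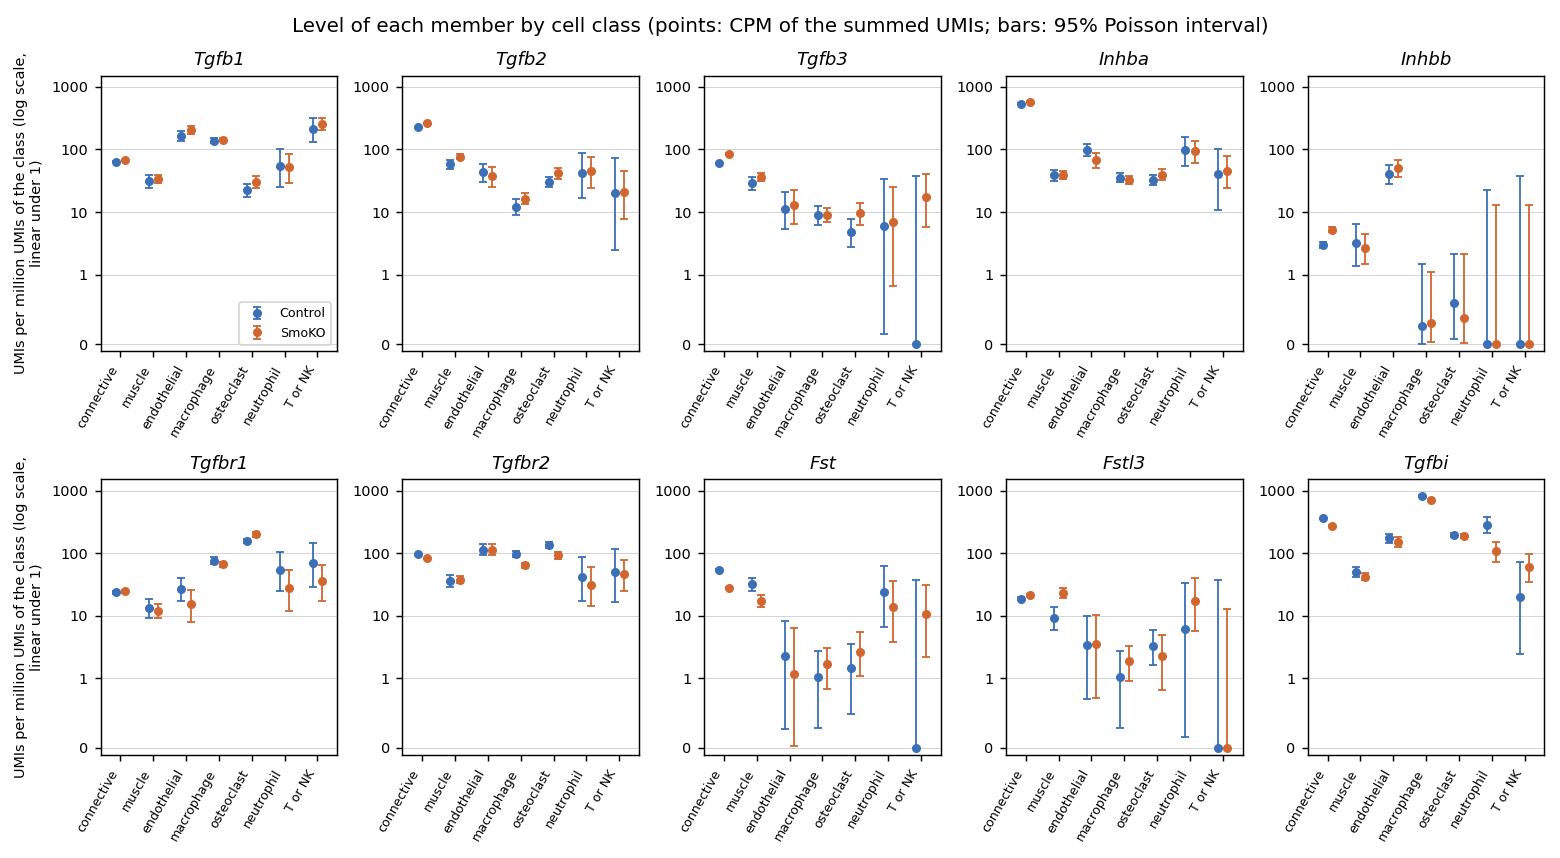
Level of each member (vertical axis, CPM, logarithmic and linear under 1) in 7 cell classes, for Control (blue) and SmoKO (orange), each point 1 library and each bar a 95% Poisson interval. Tgfb2, Tgfb3, Inhba and Fst were highest in connective cells in both libraries, Tgfbi in macrophages and monocytes, Tgfbr1 in osteoclasts and Inhbb in endothelial cells.

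Among the ligands, Tgfb1 (ENSMUSG00000002603, chr7:25687002-25705077 on GRCm38, plus strand) was the one with its higher levels outside the connective cells. It was at 63.6 CPM (interval 61.9 to 65.3) in Control and 67.0 CPM (65.3 to 68.8) in SmoKO connective cells. In macrophages and monocytes it was at 139 and 143 CPM, in endothelial cells at 165 and 208 CPM, and in T or NK cells at 211 and 257 CPM from 59 and 143 cells. The intervals of T or NK and endothelial cells overlapped in both libraries, so their order was not resolved. Muscle cells and osteoclasts held the lower levels, between 22.3 and 33.5 CPM.

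Tgfb2 (ENSMUSG00000039239, chr1:186622792-186705989, minus strand) was highest in connective cells, at 229 CPM (226 to 232) in Control and 261 CPM (257 to 264) in SmoKO. Muscle cells followed at 58.6 and 76.7 CPM, which is 25.6% and 29.4% of the connective level and above the collagen share. Macrophages and monocytes had 12.1 and 16.4 CPM, 5.28% and 6.28% of the connective level, a share close to that of the collagens. After each cell was thinned to 1000 UMIs, Tgfb2 was detected in 18.8% of Control and 23.3% of SmoKO connective cells, against 0.852% and 1.57% of macrophages and monocytes. Without thinning these shares were 74.5% and 82.1% of connective cells, at median depths of 11211 and 13893 UMIs, and 3.03% and 5.81% of macrophages and monocytes, at 2442 and 3171 UMIs.

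Tgfb3 (ENSMUSG00000021253, chr12:86056745-86079041, minus strand) was also highest in connective cells, at 60.1 CPM (58.4 to 61.7) in Control and 84.5 CPM (82.5 to 86.4) in SmoKO. The intervals of the libraries did not overlap. Muscle cells had 29.1 and 36.6 CPM, and macrophages and monocytes 8.94 and 8.96 CPM. Tgfb3 lies opposite Ttll5, Fstl3 opposite Prss57, and Tgfb2, Inhba and Fst opposite antisense genes. Per the study's methods, reads were processed with Cell Ranger 3.0.2 at default parameters. Whether reads of such partners entered the counts was not tested.

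Inhba (ENSMUSG00000041324, chr13:16011851-16031621, plus strand), which encodes the subunit of activin A, had its highest level in connective cells. It was at 537 CPM (532 to 542) in Control and 579 CPM (574 to 585) in SmoKO connective cells. Its levels in muscle cells were 38.8 and 39.1 CPM and in macrophages and monocytes 35.5 and 32.7 CPM, or 5.65% to 7.23% of the connective level. In muscle cells this was below the collagen share in both libraries. In macrophages and monocytes it was close to that share in both, at 6.61% in Control and 5.65% in SmoKO, from 135 and 212 UMIs. Endothelial cells had 98.0 and 67.3 CPM, 18.2% and 11.6% of the connective level, from 87 and 58 UMIs. The UMIs of Inhba were spread unevenly over connective cells, with up to 185 in 1 Control and 186 in 1 SmoKO cell, and the 1% of cells with most UMIs held 13.5% and 9.99% of them.

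Inhbb (ENSMUSG00000037035, chr1:119415465-119422248, minus strand), the subunit of activin B, was highest in endothelial cells at 40.6 CPM (28.4 to 56.2) in Control and 49.9 CPM (36.1 to 67.2) in SmoKO. Connective cells had 2.97 CPM (2.62 to 3.36) and 5.22 CPM (4.74 to 5.72). The endothelial intervals lay above those of connective cells, muscle cells, macrophages and monocytes and osteoclasts in both libraries. No Inhbb UMI was found in neutrophils or T or NK cells, where a count of 0 allows up to 18.1 and 30.2 CPM in Control and 10.4 and 10.6 CPM in SmoKO.

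Both receptors were found in each of the 7 classes. In neutrophils and in T or NK cells each receptor had only 5 to 13 UMIs per library, too few to place its level. Tgfbr1 (ENSMUSG00000007613, chr4:47353222-47414931, plus strand), the type I receptor, was highest in osteoclasts at 156 CPM (143 to 169) in Control and 200 CPM (183 to 218) in SmoKO. Macrophages and monocytes had 76.0 and 66.2 CPM, and connective cells 23.5 and 24.4 CPM. Osteoclasts were thus above connective cells by more than the counting error in both libraries. After thinning, 13.3% and 13.9% of osteoclasts had a Tgfbr1 UMI, against 2.59% and 3.12% of connective cells.

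Tgfbr2 (ENSMUSG00000032440, chr9:116084293-116175360, minus strand), the type II receptor that binds the ligand, was at 135 CPM (123 to 148) in Control and 92.4 CPM (81.2 to 105) in SmoKO osteoclasts. In endothelial cells it was at 114 CPM in each library, in connective cells at 95.7 and 82.1 CPM, and in macrophages and monocytes at 96.0 and 63.6 CPM. Its first-ranked class was osteoclasts in Control and endothelial cells in SmoKO, with intervals that overlapped those of the next class in both. Muscle cells had 36.0 and 37.8 CPM.

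Of the inhibitors, Fst (ENSMUSG00000021765, chr13:114452290-114458951, minus strand) was found mainly in connective and muscle cells among the 7 classes. Outside these classes, mural cells (45 in Control and 35 in SmoKO) had 62.3 and 35.1 CPM, from 28 and 16 UMIs. Connective cells had 53.6 CPM (52.0 to 55.1) in Control and 27.4 CPM (26.3 to 28.5) in SmoKO, and muscle cells 31.5 CPM (24.9 to 39.4) and 17.4 CPM (14.0 to 21.3). Macrophages and monocytes, osteoclasts and endothelial cells had between 1.05 and 2.66 CPM, from 1 to 11 UMIs each. Neutrophils (4 UMIs in each library) and T or NK cells (0 and 3 UMIs) were too shallow to place. In muscle cells Fst was at 58.9% and 63.4% of its connective level, where the collagens were at 10.7% and 10.1%.

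Fstl3 (ENSMUSG00000020325, chr10:79777272-79782630, plus strand) was at 18.6 CPM (17.7 to 19.6) in Control and 21.3 CPM (20.4 to 22.3) in SmoKO connective cells. Muscle cells had 9.30 CPM (5.90 to 14.0) from 23 UMIs in Control and 23.1 CPM (19.2 to 27.7) from 120 UMIs in SmoKO. In Control it was therefore higher in connective than in muscle cells, and in SmoKO the intervals of the 2 classes overlapped. Endothelial cells, macrophages and monocytes and osteoclasts had between 1.05 and 3.48 CPM.

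Tgfbi (ENSMUSG00000035493, chr13:56609523-56639562, plus strand), a secreted matrix protein named for its induction by TGF-beta, was highest in macrophages and monocytes at 822 CPM (794 to 852) in Control and 700 CPM (679 to 720) in SmoKO. Connective cells had 358 and 275 CPM, osteoclasts 195 and 188 CPM, and endothelial cells 172 and 150 CPM. Muscle cells held the lowest level of these, at 50.1 and 42.0 CPM. After thinning, Tgfbi was detected in 46.7% and 42.3% of macrophages and monocytes and in 26.1% and 22.0% of connective cells.

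Genes with a pattern over classes most like that of a member were ranked by Pearson's r of log2(CPM + 1) over 14 points, the 7 classes in 2 libraries, among 11279 genes at 10 CPM or more in at least 1 point. The points share their library and their differences in depth, and with so few points high values of r are common, so these are descriptions. For Inhba the 3 first genes were Dcn (r = 0.965), Crispld2 (0.964) and Col6a1 (0.952), and for Tgfb2 they were Bgn (0.957), Ccdc80 (0.949) and Loxl1 (0.945). Dcn and Loxl1 are in the connective marker list. For Tgfb3 they were Fkbp7 (0.937), Mxra7 (0.933) and Rab34 (0.929), for Fst Hoxc6 (0.943), Cdh2 (0.893) and Casc4 (0.867), and for Fstl3 Egfr (0.921), Gas1 (0.913) and Gxylt2 (0.904). For Tgfb1 they were Akap13 (0.944), Tspan13 (0.938) and Dennd4a (0.933), and for Inhbb Vwa1 (0.992), Ephb4 (0.981) and Arhgef26 (0.981). For Tgfbi, Adam9 (0.945) and Cxcl16 (0.932) were among them. The receptor Tgfbr1 was most like Flvcr1 (0.944), S100a4 (0.937) and Ostm1 (0.923), and Tgfbr2 most like Pdcd6ip (0.930), Nus1 (0.925) and Piezo1 (0.920).

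Connective cells were next split by marker lists into Sfrp4 Eln Col14a1 fibroblasts (1240 Control and 526 SmoKO cells), Tnc Loxl2 activated cells (3695 and 3596) and Fmod Acan Col11a1 skeletogenic cells (200 and 159). Tendon cells (22 and 34) and osteoblasts (8 and 5) were under 50 cells per library, and 1366 and 1138 connective cells fell in no subclass. The orders of subclasses below are among the first 3. Their leading genes were C3, Eln, Clec3b and Tnxb in the fibroblasts, Ass1, Tnc and Acta2 in the activated cells, and Fmod, Comp and Acan in the skeletogenic cells. The activated cells were the deepest, with a median of 15023 and 16953 UMIs per cell against 7174 and 7363.5 in the fibroblasts. Fst was highest in the fibroblasts and Inhba in the activated cells, in both libraries.

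**Figure D3:**
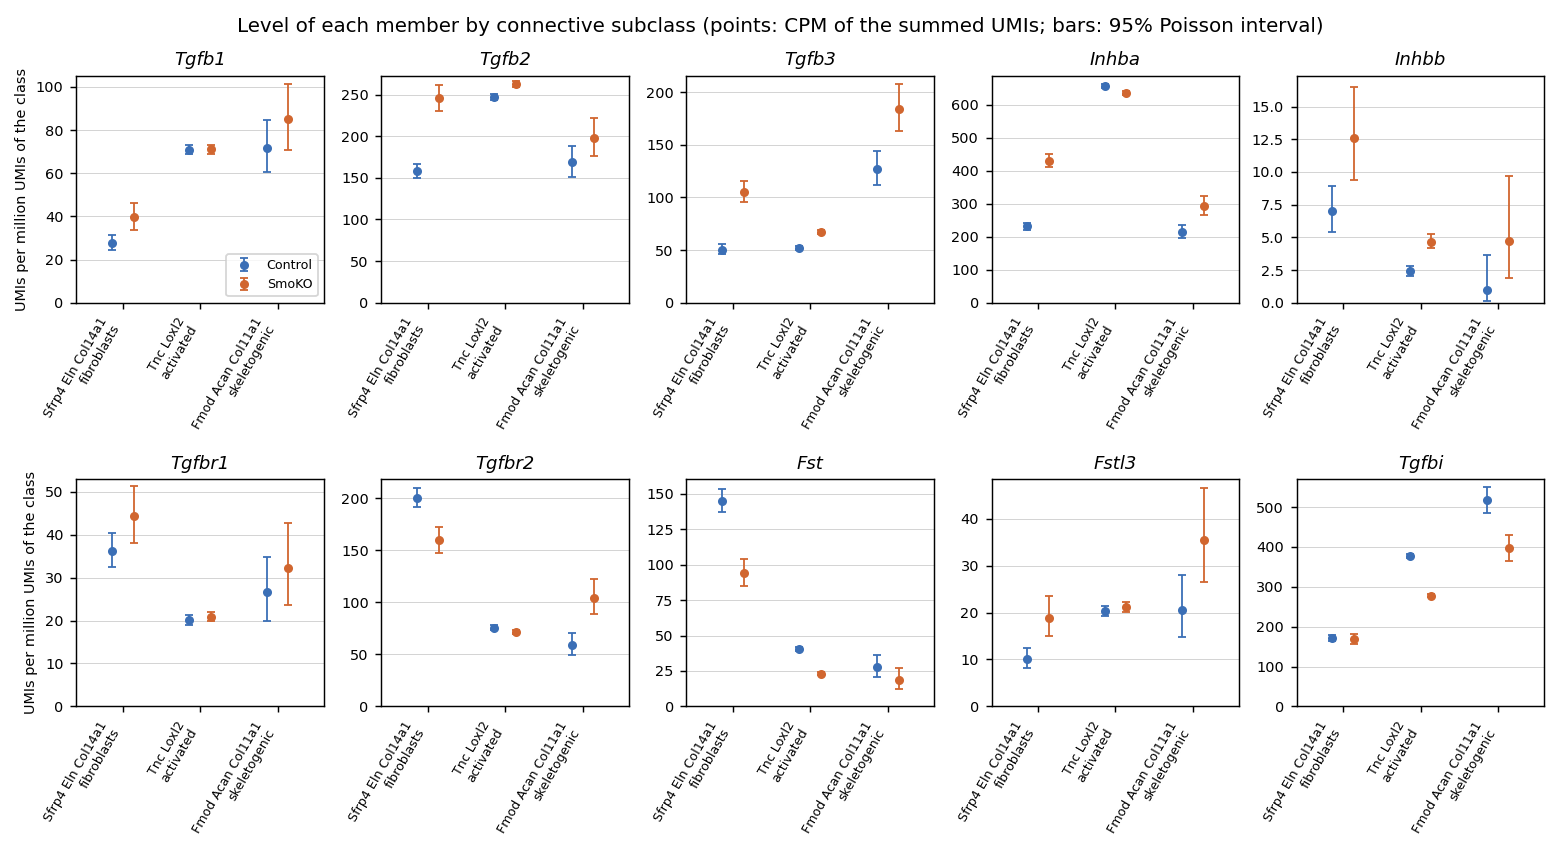
Level of each member (vertical axis, CPM, from 0, own scale per gene) in 3 connective subclasses, for Control (blue) and SmoKO (orange), each point 1 library and each bar a 95% Poisson interval. In Control, Fst was highest in the Sfrp4 Eln Col14a1 fibroblasts at 145 CPM and Inhba in the Tnc Loxl2 activated cells at 658 CPM.

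Fst was at 145 CPM (137 to 153) in Control fibroblasts, 40.4 CPM (38.8 to 42.0) in activated and 27.6 CPM in skeletogenic cells. In SmoKO it was at 94.0 CPM (84.9 to 104), 23.1 CPM (22.0 to 24.3) and 18.8 CPM in the same order. The fibroblasts were highest in both libraries, 3.59-fold (3.36 to 3.84) above activated cells in Control and 4.07-fold (3.63 to 4.55) in SmoKO. After thinning, 11.8% of Control fibroblasts and 3.69% of Control activated cells had an Fst UMI, and in SmoKO these shares were 7.80% and 1.95%.

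Inhba stood in Control at 658 CPM (652 to 665) in activated cells, 232 CPM (222 to 242) in fibroblasts and 215 CPM in skeletogenic cells. In SmoKO activated cells it was at 637 CPM (631 to 643), in fibroblasts at 430 CPM (410 to 451) and in skeletogenic cells at 294 CPM. The fibroblasts thus stood at 0.352-fold of the activated cells in Control and at 0.675-fold in SmoKO. After thinning, an Fst UMI was found in 4.50% (3.56 to 5.60) of Control connective cells with an Inhba UMI and in 6.11% (5.43 to 6.84) of those without, with intervals that overlapped. Such overlap does not show that the shares were equal. Within the activated cells of Control these shares were 3.70% and 3.68%, and within its fibroblasts 8.15% and 12.4%. In SmoKO they were 2.15% and 3.04% in connective cells, 1.65% and 2.12% in activated cells and 6.14% and 8.27% in fibroblasts. In skeletogenic cells of both libraries they went the other way, with at most 3 cells with an Fst UMI on each side.

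The TGF-beta ligands differed in their order. Tgfb1 was at 27.9 CPM in Control fibroblasts, under the 70.9 CPM of activated and the 71.8 CPM of skeletogenic cells, and in SmoKO the levels were 39.7, 71.1 and 85.2 CPM. Tgfb2 was highest in activated cells in Control, at 247 CPM against 158 in fibroblasts and 169 in skeletogenic cells, and in SmoKO it was at 263, 246 and 198 CPM. Of the 3 subclasses, Tgfb3 was highest in skeletogenic cells, at 128 CPM (112 to 144) in Control and 184 CPM (163 to 208) in SmoKO. Its levels in activated cells were 52.2 and 66.9 CPM, and in fibroblasts 50.5 and 106 CPM. The few tendon cells had 141 CPM (96.1 to 198) and 195 CPM (147 to 254) of Tgfb3, so their order with skeletogenic cells was not resolved.

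Both receptors had their highest level in the fibroblasts, though for Tgfbr1 the order over skeletogenic cells was not resolved in SmoKO. Tgfbr2 was at 201 CPM (192 to 210) in Control fibroblasts, 2.66-fold above activated cells (75.6 CPM) and 3.39-fold above skeletogenic cells (59.2 CPM). In SmoKO the fibroblasts had 160 CPM and remained the highest, 2.23-fold above activated cells and 1.53-fold above skeletogenic cells. Tgfbr1 was at 36.2 and 44.3 CPM in fibroblasts and at 20.1 and 20.9 CPM in activated cells, 1.80-fold and 2.12-fold apart. Skeletogenic cells had 26.6 and 32.2 CPM of Tgfbr1. The fibroblasts were 1.36-fold (1.02 to 1.85) above them in Control and 1.38-fold (0.998 to 1.94) in SmoKO, where the interval held 1. Tgfbi was highest in skeletogenic cells, at 517 CPM in Control and 397 CPM in SmoKO, and lowest in fibroblasts, at 172 and 169 CPM. Fstl3 stood at 10.2 CPM in Control fibroblasts and at 20.3 and 20.6 CPM in activated and skeletogenic cells, and in SmoKO at 18.9, 21.1 and 35.5 CPM.

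The comparison of the libraries asked which members differed when Smo, the transducer of hedgehog signaling, was deleted in the Sox9 lineage. A member was counted as past the fold at 1.5-fold or more in CPM with at least 10 CPM in 1 library. In connective cells 9 of 10 members reached 10 CPM. Of these, 1 was past the fold, Fst, which was lower in SmoKO, where 1.53% of 7274 genes were lower past the fold. None of the 9 was higher past the fold, against 2.19% of all genes. The median log2 ratio was 0.08 over the 9 members and 0.02 over all genes.

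Fst in connective cells went from 4627 UMIs in Control to 2346 UMIs in SmoKO, or 53.6 to 27.4 CPM, a log2 ratio of -0.97 (-1.04 to -0.90). The thinned share of cells with an Fst UMI was 5.68% (5.12 to 6.28) in Control and 2.76% (2.34 to 3.24) in SmoKO. At this depth the share follows the mean level and does not separate fewer cells with Fst from less Fst per cell. In macrophages and monocytes 0.155% and 0.058% of thinned cells had one. The UMIs of Fst were spread unevenly over connective cells, with up to 46 in 1 Control and 24 in 1 SmoKO cell. The 1% of connective cells with most Fst UMIs held 15.0% of them in Control and 22.8% in SmoKO. Fst was also lower within fibroblasts, with a log2 ratio of -0.63 (-0.79 to -0.46), and within activated cells, at -0.81 (-0.90 to -0.71). In skeletogenic cells the ratio was -0.56 with an interval that held 0 (-1.27 to 0.13). The fibroblasts, which had the most Fst, were 1240 cells in Control and 526 in SmoKO. With the SmoKO subclasses weighted as in Control, a choice made after the data were seen, the log2 ratio of Fst was -0.77.

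The tdTomato reporter, which marks the Sox9:CreER lineage, gave a UMI in 49 Control and 121 SmoKO connective cells. Fst was at 55.5 CPM (40.0 to 75.1) in those of Control and 19.98 CPM (14.9 to 26.3) in those of SmoKO. In connective cells without a reporter UMI it was at 53.5 and 27.6 CPM. Fst was thus lower in SmoKO in both sets, and since few cells gave a reporter UMI, a cell without one cannot be called outside the lineage.

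**Figure D4:**
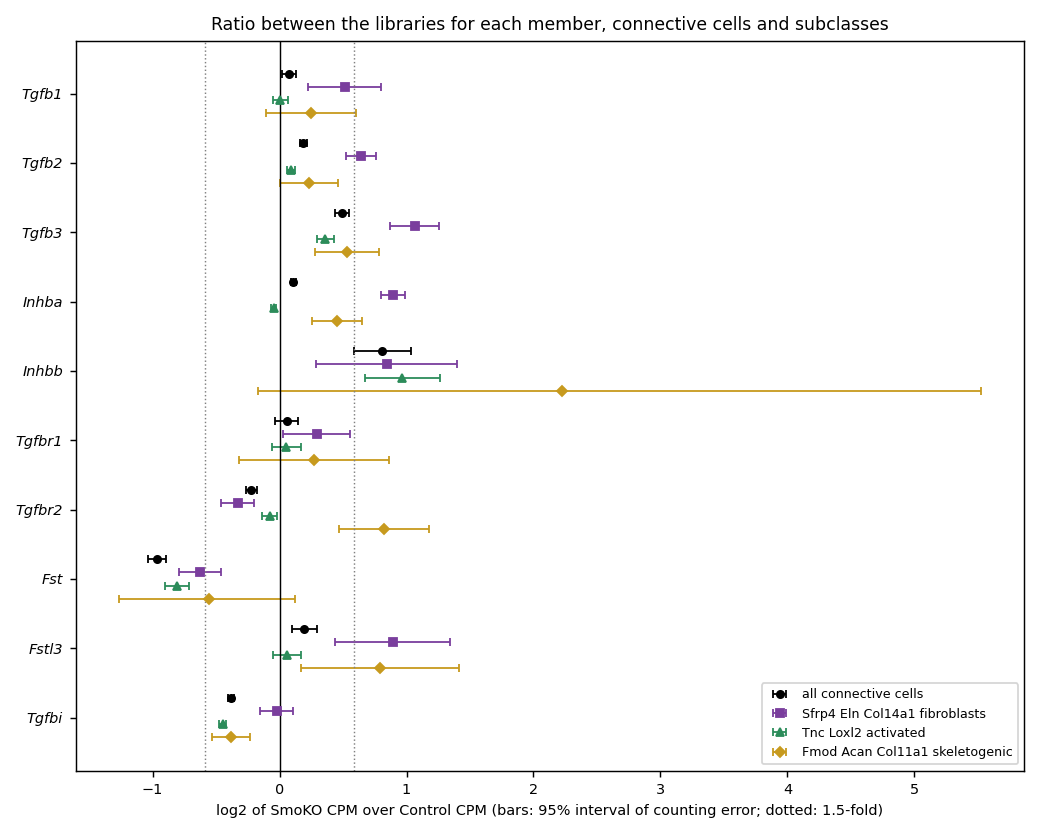
Log2 of SmoKO CPM over Control CPM (horizontal axis) for each member, in all connective cells and 3 subclasses, with 95% intervals of counting error and dotted lines at 1.5-fold. Fst lay left of 0 in each of the 4 sets, at -0.97 in all connective cells, and the fibroblasts lay farthest right for Tgfb1, Tgfb2, Tgfb3 and Inhba.

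The other members moved less in all connective cells. Tgfb3 was higher in SmoKO with a log2 ratio of 0.49 (0.44 to 0.54), and Tgfb2 with 0.19 (0.16 to 0.21). Tgfbi was lower at -0.38 (-0.40 to -0.36) and Tgfbr2 at -0.22 (-0.27 to -0.18). Inhba was at 0.11, Tgfb1 at 0.08, Fstl3 at 0.20 and Tgfbr1 at 0.06, the last with an interval that held 0 (-0.03 to 0.14). Inhbb, under 10 CPM in both libraries, was at 0.81 (0.59 to 1.04), from 257 UMIs in Control and 447 in SmoKO. Among connective cells with at most 2000 detected genes, the upper limit in the study's methods, 1487 Control and 869 SmoKO cells were left and the median log2 ratio over all genes was 0.14. There Tgfb1 (0.65), Tgfb3 (1.14) and Fstl3 (0.69) were past the fold, Tgfbi turned to 0.13, and Fst was at -1.004.

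Of the sets of cells compared, the Sfrp4 Eln Col14a1 fibroblasts had the most members past the fold. Of 10 members at 10 CPM or more, 5 were higher in SmoKO past the fold, Tgfb2, Tgfb3, Inhba, Inhbb and Fstl3, where 10.1% of 7120 genes were. Fst was the 1 member lower past the fold, against 3.16% of all genes, and it was not past the fold with a stricter gate margin (-0.53), as a mean over cells (-0.55) or with at most 2000 genes per cell (-0.35). The median log2 ratio was 0.58 over the 10 members and 0.12 over all genes in these cells. Tgfb3 went from 50.5 CPM (46.0 to 55.4) to 106 CPM (96.0 to 116), a log2 ratio of 1.06 (0.87 to 1.26), and Inhba had a ratio of 0.89 (0.80 to 0.98). Tgfb2 had a ratio of 0.64 (0.52 to 0.76). Tgfb2 was not past the fold with a gate on the number of markers detected (0.50) or scaled to the median gene (0.52), nor Inhba with at most 2000 genes per cell (0.49). Inhbb and Fstl3 rested on 52 to 93 UMIs per library. Inhbb was at 7.02 CPM in Control and 12.6 CPM in SmoKO, so it reached 10 CPM only in the library where it was higher.

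Of the subclass marker lists, the skeletogenic one differed most by fold between the libraries in the fibroblasts. The summed level of the 6 skeletogenic markers in these cells was 680 CPM in Control and 1204 CPM in SmoKO, that of the 5 activated markers 1329 and 1398 CPM, and that of the 6 fibroblast markers 5103 and 5973 CPM. The share of cells with at least 2 cell cycle markers was 4.76% and 10.5%. What part these values had in the ratios of the members in the fibroblasts was not tested.

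In the Tnc Loxl2 activated cells, 0 of 9 members were higher past the fold (2.5% of 7230 genes were) and 1 was lower, Fst (1.12% of genes were). Inhba, which was higher in SmoKO fibroblasts, had a log2 ratio of -0.05 (-0.07 to -0.03) here, and Tgfb1 one of 0.01 (-0.05 to 0.07). Tgfb3 was at 0.36 (0.29 to 0.43) and Tgfbi at -0.45 (-0.48 to -0.42). In the skeletogenic cells 2 of 9 members were higher past the fold, Tgfbr2 and Fstl3 (8.44% of 7763 genes were), and 0 were lower (9.56% were). Tgfbr2 went there from 118 UMIs or 59.2 CPM to 156 UMIs or 105 CPM, and Fstl3 from 41 to 53 UMIs.

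The number of Inhba UMIs per Fst UMI sets the activin subunit against its inhibitor, each summed over all cells of a set. It does not show that single cells held both. As a ratio between 2 genes it depends on how well each was captured, so it is read only between groups of cells. It was 10.0 (9.73 to 10.3) in Control and 21.2 (20.3 to 22.1) in SmoKO connective cells. In fibroblasts it was 1.60 (1.49 to 1.71) and 4.57 (4.10 to 5.12), and in activated cells 16.3 (15.6 to 17.0) and 27.6 (26.2 to 29.0). In skeletogenic cells it was 7.78 (5.87 to 10.5) and 15.7 (10.7 to 23.9). In each of these 4 sets the SmoKO library was higher, and in both libraries the fibroblasts were lowest of the 3 subclasses. All connective cells include the 3 subclasses, so the 4 sets are not separate. In all connective cells the log2 ratio between libraries was 0.11 for Inhba and -0.97 for Fst, and in activated cells -0.05 and -0.81. With Fst and Fstl3 UMIs added together, the ratio was 7.44 and 11.9 in connective cells, 1.49 and 3.81 in fibroblasts, 10.8 and 14.4 in activated cells and 4.46 and 5.42 in skeletogenic cells.

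**Figure D5:**
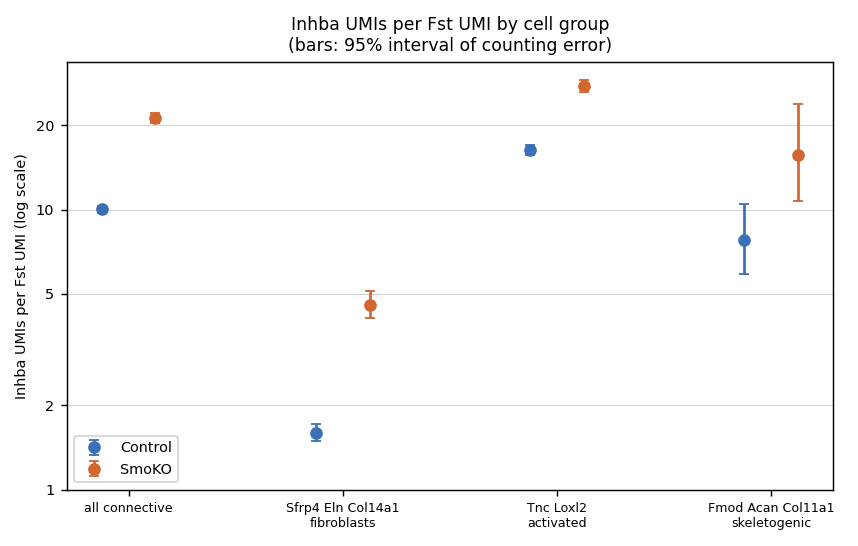
Inhba UMIs per Fst UMI (vertical axis, logarithmic) in all connective cells and 3 connective subclasses, for Control (blue) and SmoKO (orange), with 95% intervals of counting error. The ratio was higher in SmoKO in all 4 sets, 10.0 against 21.2 in all connective cells.

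Cells with at least 2 cell cycle markers were 33.5% of Control and 44.6% of SmoKO connective cells, a call that also rises with depth. In Control, Fst was at 39.1 CPM in these cells and 68.3 CPM in the others, a fold of 0.572 (0.539 to 0.607), and in SmoKO at 25.4 and 30.4 CPM, a fold of 0.837 (0.770 to 0.909). Fst was lower in SmoKO in both sets. Tgfbr2 was also lower in cycling cells, 0.533-fold in Control and 0.699-fold in SmoKO. Inhba was 1.43-fold higher in cycling cells of Control (1.40 to 1.45) and at 0.982-fold (0.965 to 1.00) in SmoKO. Tgfb3 was lower in cycling cells, 0.786-fold and 0.679-fold.

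In macrophages and monocytes, osteoclasts, muscle cells and endothelial cells few members were past the fold. Neutrophils and T or NK cells, which were too shallow for such a count, are left out of this statement. In macrophages and monocytes 1 of 6 members was lower in SmoKO, Tgfbr2 (5.11% of 6981 genes were), and 0 were higher (3.97% were). Tgfbr2 went there from 96.0 CPM (86.4 to 106) to 63.6 CPM (57.6 to 70.1), a log2 ratio of -0.59 (-0.80 to -0.39), and Tgfbi from 822 to 700 CPM, a ratio of -0.23 (-0.30 to -0.17). Tgfbr2 was not past the fold with at most 2000 genes per cell or scaled to the median gene (-0.53 in both), or with a gate on the number of markers detected (-0.58). In osteoclasts, 345 and 196 cells, 0 of 6 members were past the fold either way (6.29% of 6921 genes were higher and 3.29% lower). Tgfbr2 there was at 135 and 92.4 CPM, a ratio of -0.54 (-0.78 to -0.32), and Tgfbr1 at 156 and 200 CPM, a ratio of 0.36 (0.18 to 0.54).

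In muscle cells, 232 and 435 cells, 1 of 9 members was higher past the fold, Fstl3 (6.24% of 7288 genes were), and 1 was lower, Fst (3.66% were). Fst went from 78 UMIs or 31.5 CPM to 90 UMIs or 17.4 CPM, a log2 ratio of -0.86 (-1.32 to -0.41). Fstl3 had a ratio of 1.31 (0.66 to 2.03). With 9.30 CPM in Control and 23.1 CPM in SmoKO, Fstl3 reached 10 CPM only in the library where it was higher. The connective collagens were at 10.7% and 10.1% of their connective level in these cells. With at most 2000 genes per cell the ratio of Fstl3 was 0.45, and that of Fst -1.96. In endothelial cells 0 of 8 members were higher (13.5% of 8249 genes were) and 1 was lower, Tgfbr1 (12.3% were), from 24 and 13 UMIs with an interval that held 0 (-1.94 to 0.19). In these 2 classes the share of all genes past the fold was higher than in connective cells, and neutrophils and T or NK cells were too shallow for such a count.

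The other genes of the pathway were read from a list of 48 receptors, latency proteins, other ligands, Smads and response genes. In connective cells 35 of them reached 10 CPM, 2 were higher past the fold (2.19% of 7274 genes were) and 0 were lower (1.53% were). The 2 were Acta2, smooth muscle actin, at 835 CPM in Control and 1264 CPM in SmoKO (log2 ratio 0.60, 0.59 to 0.61), and Tagln, an actin-binding protein of contractile cells, at 313 and 512 CPM (0.71, 0.69 to 0.73). Both were also higher past the fold in macrophages and monocytes (3.97% of 6981 genes were), with Acta2 at 57.6 and 89.6 CPM. The same held in osteoclasts (6.29% of 6921 genes were), with Acta2 at 57.6 and 120 CPM. The collagens read as background were at 5.84% and 5.74% of their connective level in macrophages and monocytes. In osteoclasts they were at 8.95% and 9.19%. These Acta2 levels were near that background, so carried connective RNA and expression cannot be told apart in these classes. The 9 muscle markers, none of them at 0, summed to 46.6 CPM in Control and 81.4 CPM in SmoKO connective cells, and the 6 mural markers, none at 0, to 32.7 and 30.3 CPM. Their part in the result was not tested. Smad7, an inhibitory Smad induced by the pathway, had a ratio of 0.58 (0.52 to 0.63) and Postn one of 0.03 (0.02 to 0.04), and 2 of the 9 listed response genes were past the fold. In the fibroblasts 8 of 37 listed genes were higher past the fold (10.1% of 7120 genes were), Acta2, Ctgf, Eng, Gdf15, Htra1, Ltbp2, Pmepa1 and Tagln, and 1 was lower, Acvr1b (3.16% were). In the activated cells 1 of 35 was higher, Smad7 (2.5% of 7230 genes were), and 0 were lower (1.12% were).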

How the data were processed

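Cells of 3 pooled calluses per genotype were profiled on the 10x Chromium platform. The authors deposited raw UMI counts per gene and barcode, made with Cell Ranger 3.0.2 on mm10 per the labels, without normalization. The values were whole numbers and every barcode had at least 500 UMIs. Members and marker lists were chosen with earlier results of these data known, and the scoring rule of the gate was set on these data.

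Each marker was taken as ln(1 + UMIs per 10000), divided by its 99th percentile over cells and capped at 1. Where no UMI was found at that percentile, the median of the cells with a UMI was used instead. A cell took the class whose markers had the highest mean score, if at least 0.15, 1.5 times the next class and resting on at least 2 markers. Subclasses needed a margin of 1.25. A total of 195 Control and 225 SmoKO connective cells lay within 2 times the next class. No doublet caller was run, and how many mixed cells the gate margin left out was not measured. UMIs were summed per library and set of cells and given as CPM with exact 95% Poisson intervals, ratios with exact conditional intervals and shares with exact Clopper-Pearson intervals. With 1 library per genotype there was no test and no SD. Detected shares were also computed after thinning to 1000 UMIs, which left out shallower cells (242 Control and 133 SmoKO connective cells). The ratio, its interval and the fold rule were checked on simulated Poisson counts at the depth of whole libraries, with planted 2-fold changes either way. That check did not cover the depth of single classes or spread between cells or animals. All 10 members are named. Of the pathway list, those past the fold in connective cells were named by rule, and the other listed genes after their values were seen. Some genes that these rules name are not reported here. Gene positions are from GENCODE vM21 (GRCm38). Python 3.11.15, numpy 2.4.6, scipy 1.17.1 and pandas 2.3.3 were used.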

Additional observations from a re-analysis of the deposited data

Results flagged for a closer look

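Inhba and Tgfbr2 had counting intervals clear of 0 on opposite sides in different sets of cells, and the difference between those sets was not tested, since each genotype was 1 library. The log2 ratio of SmoKO over Control for Inhba was 0.11 in all connective cells and -0.54 (-1.05 to -0.05) in endothelial cells, the latter from 87 and 58 UMIs. The collagens read as background in endothelial cells were also lower in SmoKO, at 7.88% of their connective level against 12.2% in Control. The part of carried RNA in the endothelial Inhba ratio was not tested. By subclass the ratio of Inhba was 0.89 in the Sfrp4 Eln Col14a1 fibroblasts, 0.45 in the skeletogenic cells and -0.047 in the Tnc Loxl2 activated cells. For Tgfbr2 the ratio was 0.82 in the skeletogenic cells, from 118 and 156 UMIs, -0.33 in the fibroblasts and -0.076 in the activated cells.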

How the results depend on the processing

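No paired analysis was possible because the result comes from no test, with 1 library per genotype. The log2 ratio of Fst in connective cells was below 0 and past 1.5-fold under each of its 10 alternatives, from -1.11 without the 1% of cells with most Fst UMIs to -0.77 with the subclass mix of the Control library. None of the other ratios past the fold that were recomputed changed sign (Fst in muscle cells, fibroblasts and activated cells, Tgfbr2 in macrophages and monocytes, Fstl3 in muscle cells, and Tgfb2, Tgfb3 and Inhba in the fibroblasts). With at most 2000 genes per cell, 3 members were higher past the fold in connective cells, 0 were lower in the fibroblasts, and 1082 genes were higher and 302 lower in connective cells, against 159 and 111 as reported. The Fst fold of fibroblasts over activated cells was then 2.45 in Control and 6.27 in SmoKO, and with a gate on the number of markers detected 2.88 and 2.86. With a stricter gate margin 0 members were lower in the fibroblasts. At a floor of 5 CPM 1 member, Inhbb, was higher in connective cells. Inhbb reached that floor only in SmoKO, at 5.22 CPM against 2.97 CPM in Control. At a floor of 50 CPM 3 members were higher in the fibroblasts, and 49 genes were higher and 27 lower in connective cells. At 2-fold, 0 members were lower in connective cells, 1 was higher and 0 lower in the fibroblasts, and 64 genes were higher and 19 lower in connective cells. Thinned to 2000 UMIs, Fst was detected in 10.1% of Control and 4.69% of SmoKO connective cells. Under these settings all genes were not counted in the fibroblasts, and the number of genes tested in connective cells is not given. These counts of members thus stand beside no share of all genes and show only how the counts moved. The causes were not tested. Of 276 values recomputed, 212 stayed within the counting interval, or within 1.5 times for a count. Depth limits the neutrophils and T or NK cells most. The number of cells limits the T or NK cells of Control (59) and the endothelial cells (74 in Control and 75 in SmoKO).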
